A study of Ovis aries with 6 samples.

Results

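The genes described here make, inactivate or sense prostaglandins, and they were chosen by name: the synthesis genes PTGS1, PTGS2, PTGES, PTGES2, PTGES3 and AKR1B1, the inactivating enzyme HPGD and the receptors PTGFR, PTGER2 and PTGER4. Of these 10 symbols, 8 were listed among the 14480 genes of the expression table, and PTGES and PTGES3 were not listed by symbol. Only 3 of the 8, AKR1B1, PTGES2 and PTGFR, were abundant enough to be tested between breeds. Ovaries of Mongolian sheep and Hu sheep were profiled by RNA sequencing during estrus, with 3 libraries per breed. Hu sheep are known for large litters and Mongolian sheep for single lambs, so the comparison sets ovaries of high and low prolificacy side by side. No treatment, transgene or deletion is named for either breed, both groups share the tissue and the stage of the cycle, and the labels give neither the age of the ewes nor the part of the ovary taken. They also do not say whether the 3 libraries of a breed came from separate ewes, so the p-values measure only the spread between these libraries.

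Prostaglandins are short-lived lipids made from arachidonic acid, which phospholipases release from membranes. The cyclooxygenases PTGS1 and PTGS2 turn it into PGH2, and terminal enzymes convert PGH2 to PGE2, PGF2α, prostacyclin, PGD2 or thromboxane. In the ovary the gonadotropin surge induces PTGS2 in granulosa cells before ovulation, PGE2 acts through PTGER2 and PTGER4 in the expansion of the cumulus, and in ruminants PGF2α from the uterus ends the life of the corpus luteum through PTGFR.

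AKR1B1 was the one gene of the 8 listed above 0 in all 6 libraries, and it stood higher in every Hu library than in any Mongolian library. PTGFR stood at 53.7 FPKM in a single Hu library and was listed at 0 in the other two. PTGES2 lay below every Mongolian value in all 3 Hu libraries, and PTGS2 and HPGD were listed above 0 in Hu 3 alone. None of the tested genes passed the threshold over all genes. FPKM are fragment numbers divided by the length of the transcript and by the total of the library, so levels can be compared between genes. Values for a breed are in the order of replicates 1, 2 and 3.

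The Hu libraries listed 6500, 7971 and 13342 genes above 0 and the Mongolian libraries between 10547 and 11463, and a value of 0 is described only as listed at 0. Depth is unknown. Stromal markers summed to between 918 and 1181 FPKM with none of 11 at 0 in any library. Granulosa markers (10 listed) summed to between 59.7 and 270.2 FPKM and the inhibin subunit INHA, the highest of them in the mean over libraries, stood at 15.6 to 99.1. Of these 10 markers, 5 were at 0 in Hu 1, the library with the highest sum, and 1 or 2 in each other library. The oocyte gene GDF9 was above 0 in Mongolian 3 alone, at 0.50 FPKM, and oocyte markers (2 listed) reached 0.89 FPKM in sum. Summed FPKM ranged from 11.4 to 89.1 for macrophage and leukocyte markers (13 listed), from 0 to 1.78 for mast cells (2 listed), from 0 to 5.94 for the 1 marker of red cells and platelets listed, and from 0.34 to 32.96 for surface epithelium and oviduct (7 listed).

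**Figure D1:**
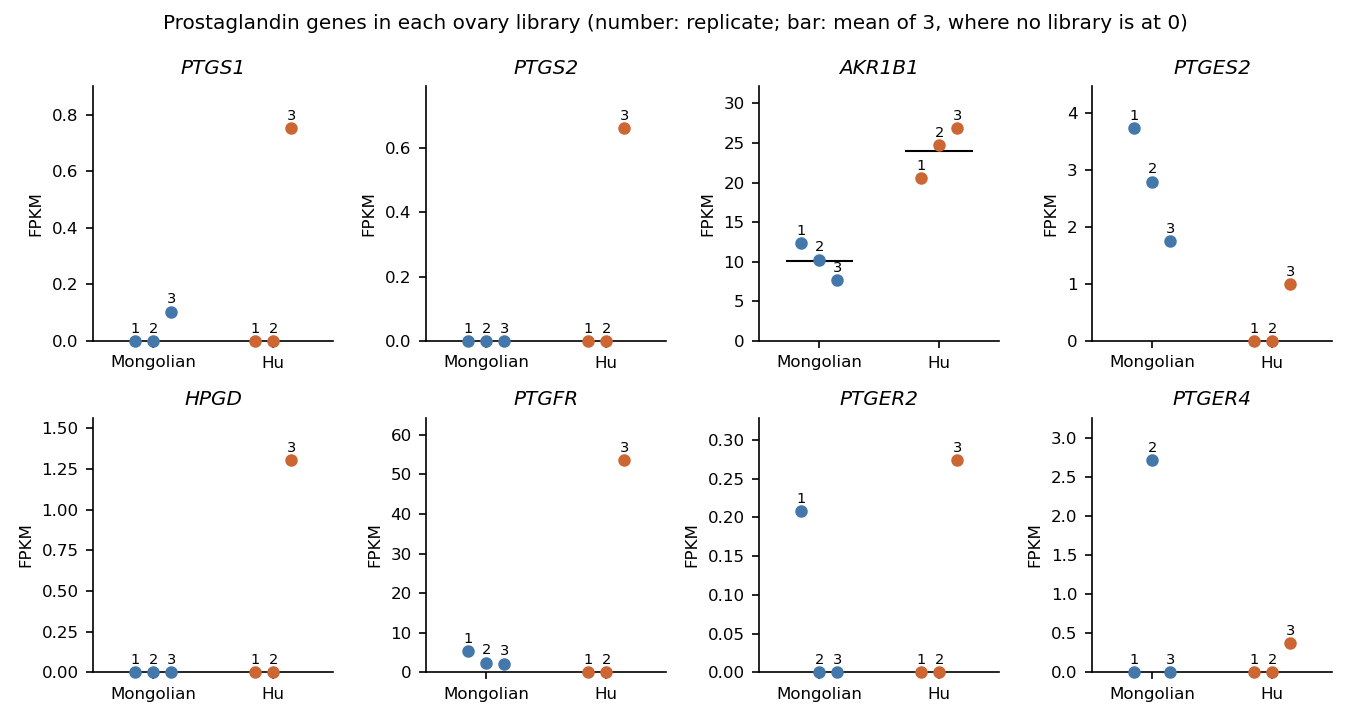
FPKM (vertical axes, linear and separate for each gene) of the 8 listed prostaglandin genes in the 3 Mongolian and 3 Hu libraries; numbers beside the points are replicates and the bar, drawn for AKR1B1 alone, is the mean of 3. AKR1B1 lies between 7.72 and 12.4 FPKM in Mongolian and between 20.5 and 26.8 in Hu, and 6 of the 8 genes have their highest value in Hu 3.

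The cyclooxygenases open the pathway and were near the floor of the table. PTGS2, the form induced before ovulation, was listed at 0 in 5 libraries and at 0.66 FPKM in Hu 3. PTGS1, the form most cells carry at a steady level, stood at 0, 0 and 0.10 FPKM in Mongolian and at 0, 0 and 0.75 in Hu. In Hu 3, where both enzymes were listed, 85.7% of the listed genes stood above PTGS2 and 83.9% above PTGS1. Neither was tested, since a test required at least 0.5 FPKM in at least 3 libraries.

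AKR1B1 (ENSOARG00000007414), an aldo-keto reductase that reduces glucose to sorbitol and PGH2 to PGF2α, was the most abundant of the 8 in every library except Hu 3. It stood at 12.4, 10.3 and 7.72 FPKM in Mongolian and at 20.5, 24.8 and 26.8 in Hu. The lowest Hu library therefore lay above the highest Mongolian one. The mean was 10.1 ± 2.34 FPKM in Mongolian and 24.0 ± 3.21 in Hu (SD, n = 3 each), a ratio of 2.37 between the means. On the log2(FPKM + 1) scale the difference was 1.18 with a standard error of 0.52 (95% confidence interval from 0.08 to 2.29, unadjusted), against a median of -0.28 over the 9971 genes tested. The limma p was 0.0374 before adjustment and 0.998 after Benjamini-Hochberg adjustment over all genes, so the gene did not pass. In a piece of tissue, more cells of a type and more RNA per cell cannot be told apart.

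Of the genes tested, 1.88% had every Hu library above every Mongolian library, and 6.05% had every Hu library below. An unadjusted p under 0.05 with a higher level in Hu was found for 0.913% of genes, and with a lower level for 2.82%. Across the whole table limma called 0 genes (0%) at an adjusted p under 0.05, with 372 genes at an unadjusted p under 0.05. AKR1B1 was the 1 member of the 3 tested with a higher level in Hu under either of these rules, and it also lay above 0 in the log2 difference, as did 32.3% of all genes tested. PTGES2 was the 1 member lower in Hu under either rule.

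For AKR1B1 the breeds also did not overlap when the libraries were put on other scales. After median-of-ratios scaling it stood at 11.5, 10.3 and 6.46 in Mongolian and at 30.8, 29.0 and 16.8 in Hu. After each library was brought to a common sum over the rows that carry a symbol, it stood at 11.99, 10.2 and 7.68 in Mongolian and at 30.9, 28.9 and 16.0 in Hu. The order within Hu turned with the scale, since Hu 3 was the highest of the breed as deposited and the lowest on both other scales. Among the 5046 rows above 0 in all 6 libraries, 25.1%, 27.8% and 44.2% stood above AKR1B1 in Mongolian and 11.02%, 10.2% and 18.8% in Hu. That measure uses no scaling, and the groups did not overlap (exact permutation test, 2-sided, p = 0.1, which is the lowest value possible with 3 libraries on each side). The permutation test was run for AKR1B1 alone, and without overlap its p could take no other value.

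**Figure D2:**
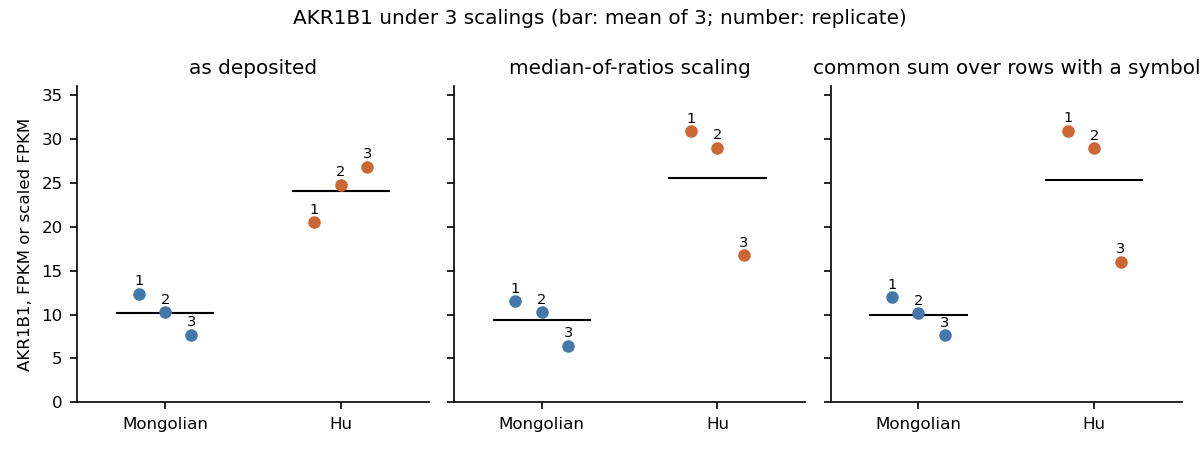
AKR1B1 level (vertical axis, FPKM or scaled FPKM, starting at 0) in each library with the values as deposited and after 2 other scalings; numbers are replicates and bars are means of 3. The lowest Hu point is 20.5 as deposited, 16.8 after median-of-ratios scaling and 16.0 on a common sum, above the highest Mongolian points of 12.4, 11.5 and 11.99.

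PTGES2 (ENSOARG00000010878), a membrane-associated enzyme first described as a prostaglandin E synthase, ran in the opposite direction. It stood at 3.73, 2.79 and 1.76 FPKM in Mongolian and at 0, 0 and 0.998 in Hu. Every Hu value was below every Mongolian value. On both other scales Hu 3 stood at 0.62 and 0.60 against 1.47 or more in Mongolian. Those scales could not change the order, since a 0 stays 0 and Hu 3 had the largest divisor on each (1.60 and 1.67). Values of 0 in both Hu 1 and Hu 2 were found in 36.8% of all rows. The full listing, with Hu 3 above 0 but below every Mongolian value, was found in 172 rows (1.19%). The log2 difference was -1.54 with a standard error of 0.65 (95% confidence interval from -2.93 to -0.15), with a limma p of 0.0317 before and 0.998 after adjustment. With limma array weights, which gave Hu 2 a weight of 3.64 and Hu 3 one of 0.25, the difference was -1.93 with an adjusted p of 0.0269. This call was made under that setting alone, which called 633 of the 9971 genes tested and had a median difference of -0.43 over them. With a pseudocount of 0.1 the difference was -3.62, since the size of a change toward 0 follows the pseudocount.

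Set against each other within a library, AKR1B1 was 3.32, 3.68 and 4.40 times as abundant as PTGES2 in Mongolian and 26.9 times in Hu 3. The ratio has no value in Hu 1 and Hu 2, where PTGES2 was listed at 0. HPGD, the dehydrogenase that begins the breakdown of PGE2 and PGF2α, was listed at 0 in 5 libraries and at 1.30 FPKM in Hu 3, and was not tested.

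PTGFR (ENSOARG00000013402), the receptor for PGF2α that signals through Gq proteins, had the widest spread of the 8. It stood at 5.36, 2.45 and 2.23 FPKM in Mongolian and at 0, 0 and 53.7 in Hu. The Mongolian libraries therefore lay between the Hu libraries, and the value in Hu 3 was 10.01 times the highest Mongolian value as deposited. On the other scales this ratio was 6.74 (33.5 against 4.98, median-of-ratios) and 6.17 (32.04 against 5.19, common sum). In Hu 3 only 3.44% of the listed genes stood above it, against 32.9%, 52.7% and 65.7% in Mongolian. PTGFR was 1.999 times as abundant as AKR1B1 in Hu 3 and 0.43, 0.24 and 0.29 times as abundant in Mongolian. The log2 difference was -0.13 with a standard error of 1.21 (95% confidence interval from -2.69 to 2.44; limma adjusted p = 0.9998), an interval that spans large changes both ways. Single libraries set its sign. It was -2.05 without Hu 3 (limma adjusted p = 0.133), 0.84 without Hu 1 or without Hu 2, and 0.18 without Mongolian 1. With a pseudocount of 0.1 it was -1.97 (limma adjusted p = 0.928) and with array weights -1.84 (adjusted p = 0.108).

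The listing of PTGFR itself was shared by many rows. Of 14480 rows, 1166 (8.05%) were above 0 in all Mongolian libraries and Hu 3 and at 0 in Hu 1 and Hu 2, and in 446 of these Hu 3 was above every Mongolian library. The median ratio of Hu 3 to the highest Mongolian value over those 446 rows was 1.56, and PTGFR, at 10.01, had the highest ratio of them. The next was BLOC1S6, a subunit of a complex that builds lysosome-related organelles, at 7.58. This ranking is a description, made after the values were seen.

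PTGFR is known in luteal and smooth muscle cells. Theca and luteal markers (11 listed) summed to 32.0, 28.6 and 425 FPKM in Mongolian and 148, 38.4 and 164 in Hu. The sum was highest in Mongolian 3, where OXT, the oxytocin gene of ruminant luteal cells, made up 305 FPKM of it, against 42.1 in Hu 3. Without OXT the sum as deposited was 120.2 in Mongolian 3, 121.5 in Hu 3 and 69.1 or less elsewhere. After median-of-ratios scaling the sum with OXT was 356 in Mongolian 3, 221.9 in Hu 1 and 102.3 in Hu 3. On a common sum it was 423, 222 and 97.7 in the same order. The sum without OXT was not put on these other scales. They divide Hu 3 by 1.60 and 1.67, Mongolian 3 by 1.19 and 1.01, and Hu 1 by 0.67 and 0.66. Hu 3 would therefore fall below Mongolian 3 on both, and Hu 1 would rise. Of the 11 markers 7 (63.6%) were highest in Hu 3, as were 45.5% of all rows. Hu 3 was the one library with all 11 markers above 0, including the luteal genes PRLR at 0.41 FPKM and RGN at 2.21, both listed at 0 elsewhere. OXT was listed at 0 in Mongolian 1 and Mongolian 2. Smooth muscle and pericyte markers (9 listed) summed to 952, 773 and 934 FPKM in Mongolian and 606, 728 and 1519 in Hu, with RGS5 the 1 marker at 0 in any library. Endothelial markers (11 listed) summed to 11.97, 23.1 and 12.5 in Mongolian and 21.1, 25.6 and 45.7 in Hu. The number of them at 0 was 2, 0 and 3 in Mongolian and 5, 4 and 0 in Hu. TEK and EMCN were at 0 in Mongolian 3, Hu 1 and Hu 2, whereas LYVE1 was at 0 in Mongolian 1 and Mongolian 3 and highest in Hu 2, at 8.89 FPKM. The smooth muscle and endothelial sums were both highest in Hu 3 as deposited, but this depended on the scale. On a common sum smooth muscle markers stood at 907 in Hu 3 and 929 in Mongolian 3, and endothelial markers at 27.3 in Hu 3 and 31.7 in Hu 1. After median-of-ratios scaling smooth muscle markers were highest in Hu 3 (949.6) and endothelial markers in Hu 1 (31.7 against 28.6 in Hu 3). PTGFR was highest in Hu 3 on each of these scales, and the part of other cells in its level was not tested.

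**Figure D3:**
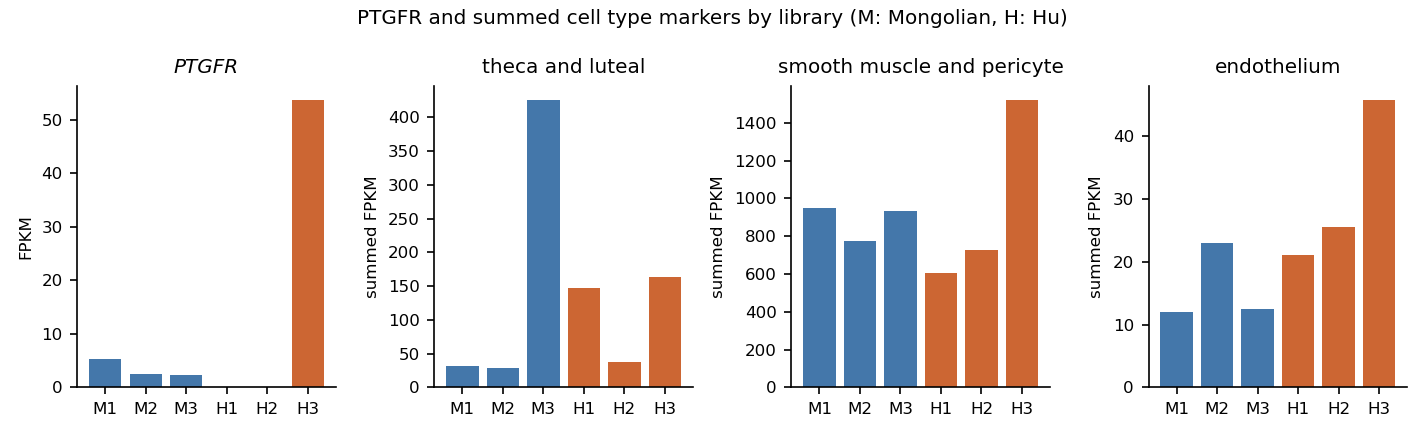
PTGFR level (FPKM) and summed FPKM of 3 cell type marker lists (vertical axes, linear from 0) in the 6 libraries, Mongolian M1 to M3 and Hu H1 to H3. PTGFR stands at 53.7 FPKM in H3, where smooth muscle and endothelial sums are also highest as deposited, at 1519 and 45.7, though on a common sum neither is highest there (907 and 27.3). The theca and luteal sum is highest in M3 at 425, of which OXT is 305.

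The 2 PGE2 receptors, which both raise cyclic AMP through Gs proteins, were listed in few libraries and were not tested. PTGER2 stood at 0.21, 0 and 0 FPKM in Mongolian and at 0, 0 and 0.27 in Hu. PTGER4 stood at 0, 2.72 and 0 in Mongolian and at 0, 0 and 0.38 in Hu, so its one value above 1 FPKM came from Mongolian 2. Across the 8 genes, 7 were listed at 0 in both Hu 1 and Hu 2, where 36.8% of all rows were. All 8 were listed above 0 in Hu 3, as were 13342 of all 14480 rows. Of the 8, 6 had their highest value there and 2 were listed there alone, against 45.5% and 7.87% of all rows. With 8 genes and 1 such library, these counts are descriptions of Hu 3 as deposited. That library had the most genes listed and the highest FPKM sum over rows with a symbol.

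**Figure D4:**
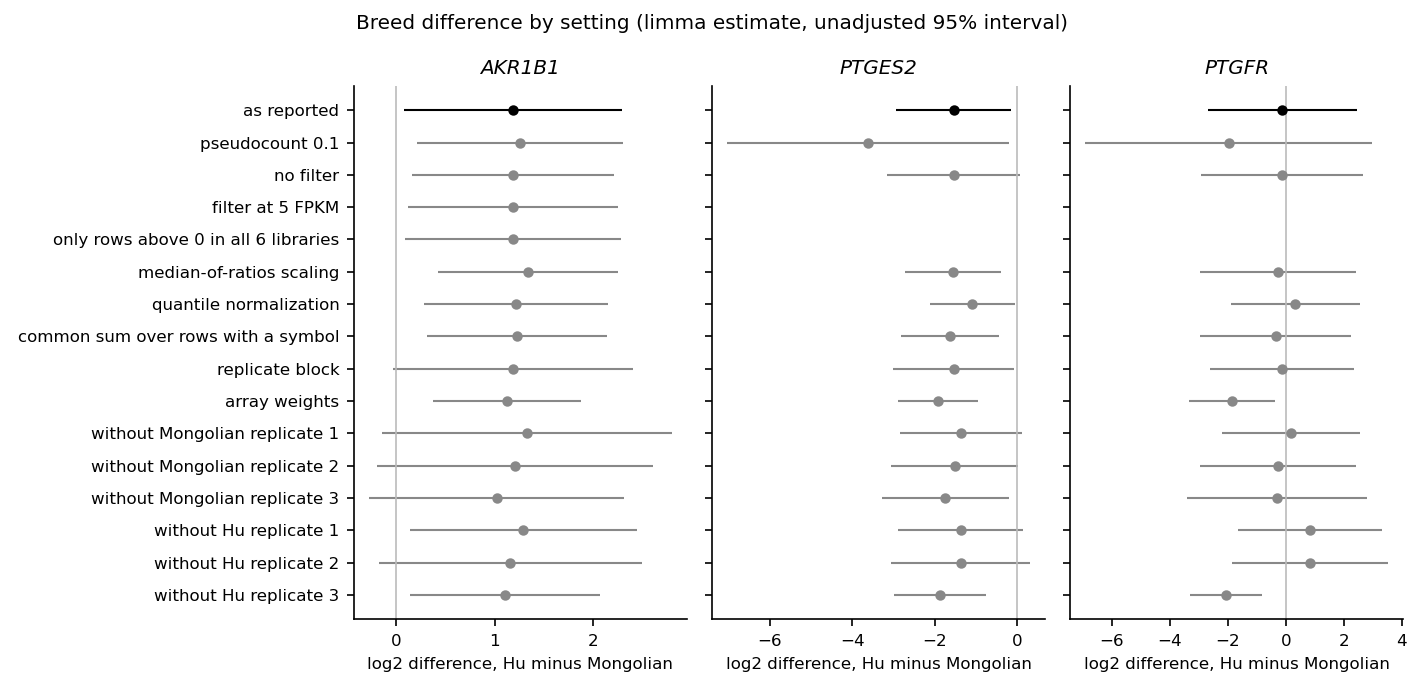
Log2 difference, Hu minus Mongolian (horizontal axes, with a separate range for each gene), of the 3 tested genes under each setting, as limma estimates (points) with unadjusted 95% intervals (bars); black is the value reported and an empty line means that the gene was filtered out. AKR1B1 stays between 1.02 and 1.34 and PTGES2 below 0, whereas PTGFR moves from -2.05 without Hu replicate 3 to 0.84 without Hu replicate 1 or 2.

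Genes whose levels followed each tested member most closely were found by Pearson correlation of log2(FPKM + 1) over the 6 libraries with 7571 other tested genes that carry a symbol. These correlations describe 6 points that share library and depth. AKR1B1 was followed most closely by GOLGA5 (r = 0.99), a Golgi membrane protein, by C1QTNF3 (r = 0.98), a secreted protein of the C1q and TNF family, and by SREK1IP1 (r = 0.98). C1QTNF3 stood at 13.9, 13.7 and 7.92 FPKM in Mongolian and at 21.02, 28.04 and 30.6 in Hu. For AKR1B1, 39 genes had r above 0.9. For PTGFR there were 500 such genes, led by REEP3, PARP9 and CCDC50 with r of 0.995, 0.99 and 0.99. REEP3, an endoplasmic reticulum protein, stood at 4.71, 3.44 and 3.24 FPKM in Mongolian and at 1.999, 1.87 and 14.3 in Hu, so Hu 3 was highest for it too. PTGES2 had 102 such genes, led by SCN1A, CCDC136 and ADAMTSL1 with r of 0.996, 0.995 and 0.99, all at most 1.14 FPKM and at 0 in Hu 1 and Hu 2.

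The rest of the pathway was read from 6 lists of 122 symbols, of which 70 were listed and 52 tested. None of the 52 was called by limma (adjusted p of 0.998 or more) and 3 (PLAAT3, PPARG and GNA11, all lower in Hu) had an unadjusted p under 0.05, where 3.73% of all genes tested did. Of the 52, 18 were higher in Hu and 34 lower, with a median log2 difference of -0.30 beside -0.28 over all genes. The breeds did not overlap in 4 of the 52 (7.69%), all with Hu below, against 6.05% of all genes in that direction. Values below are given without a claim of change.

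Of the arachidonate release genes 8 of 24 were tested, 3 higher and 5 lower in Hu, with a median of -0.36. PLAAT3, a phospholipase of adipose and other tissues, stood at 15.9, 4.54 and 8.10 FPKM in Mongolian and at 0, 0 and 6.62 in Hu, a log2 difference of -2.27 (limma adjusted p = 0.998). PLA2G4A, the cytosolic phospholipase that supplies the cyclooxygenases, was named outside the rule for named genes; it stood at 0, 0.21 and 0 in Mongolian and at 0, 0 and 0.93 in Hu. ANXA1, a protein known to restrain phospholipase A2, stood at 13.3, 18.1 and 14.4 in Mongolian and at 14.97, 11.3 and 50.2 in Hu. MGLL, a lipase that frees arachidonate from an endocannabinoid, stood at 2.76, 2.52 and 5.47 in Mongolian and at 0, 2.74 and 4.995 in Hu. ACSL4, which activates arachidonate, stood at 0.81, 1.85 and 2.18 in Mongolian and at 0.20, 3.85 and 8.22 in Hu. PLAA, a phospholipase-activating protein, stood at 0.78, 2.98 and 2.11 in Mongolian and at 1.46, 2.28 and 6.79 in Hu. All of these genes overlapped between the breeds, and all but PLAAT3 and MGLL were highest in Hu 3. Over the whole list 6 of 13 genes (46.2%) were highest there, a share close to the 45.5% of all rows.

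Among other prostanoid synthases and reductases 5 of 19 were tested, 2 higher and 3 lower in Hu, with a median of -0.06. PTGIS, prostacyclin synthase, stood at 8.23, 9.78 and 27.2 FPKM in Mongolian and at 2.52, 8.65 and 8.86 in Hu. It was therefore more abundant than PTGES2 in every library. PTGR1, a reductase that inactivates prostaglandins after HPGD, stood at 9.19, 15.6 and 13.4 in Mongolian and at 5.09, 13.2 and 35.5 in Hu. PTGR2, which acts at the same step, stood at 4.64, 6.34 and 2.30 in Mongolian and at 0, 0 and 10.8 in Hu. This is the listing seen for PTGFR and for 8.05% of all rows. AKR1A1, a relative of AKR1B1, stood at 5.10, 6.02 and 5.68 in Mongolian and at 5.43, 3.61 and 8.86 in Hu, with a log2 difference of 0.01 and a standard error of 0.63. GSTM3, a glutathione transferase, ranged from 3.12 to 22.5 FPKM. PTGR1 was thus listed in the 5 libraries in which HPGD was at 0.

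Of the other receptors and transporters 4 of 14 were tested, 1 higher and 3 lower in Hu, with a median of -0.45. PPARG, a nuclear receptor that binds prostaglandin metabolites, stood at 3.94, 4.23 and 3.22 FPKM in Mongolian and at 0, 0 and 2.19 in Hu, without overlap (log2 difference -1.70, standard error 0.74, limma adjusted p = 0.998). PPARD, its relative, stood at 2.66, 5.33 and 9.25 in Mongolian and at 0, 5.30 and 8.94 in Hu. SLCO2A1, the prostaglandin uptake transporter, stood at 0.93, 0.55 and 0 in Mongolian and at 1.69, 1.58 and 0.59 in Hu. SLCO3A1, another organic anion transporter, ranged from 0 to 9.92, and TBXA2R, the thromboxane receptor, was above 0 in Mongolian 3 alone at 0.47.

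Genes that carry receptor signals numbered 19 tested of 22, 4 higher and 15 lower in Hu, with a median of -0.47. GNA11, a Gq-class protein through which PTGFR can signal, stood at 9.07, 5.79 and 13.5 FPKM in Mongolian and at 0, 0 and 5.51 in Hu, without overlap (log2 difference -2.42, standard error 0.83, limma adjusted p = 0.998). GNAQ, its close relative, stood at 6.99, 7.22 and 5.21 in Mongolian and at 0, 2.24 and 12.1 in Hu. ADCY3, an adenylyl cyclase, stood at 2.77, 3.40 and 3.52 in Mongolian and at 0, 0.46 and 1.53 in Hu. PRKAR2B and PRKAR1A, regulatory subunits of the kinase that cyclic AMP activates, stood at 52.5, 32.0 and 38.2 and at 11.8, 15.2 and 14.2 in Mongolian. In Hu they stood at 12.4, 10.5 and 49.7 and at 7.06, 11.9 and 27.6. GNA11 and PTGFR were both listed at 0 in Hu 1 and Hu 2, but in Hu 3 GNA11 stayed below every Mongolian value. Zeros in both of these libraries were found in 36.8% of all rows and in 5 of the 21 genes listed from this set.

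Genes of the ovulatory response, many of which act with or downstream of PTGS2, numbered 14 tested of 30, 7 higher and 7 lower in Hu, with a median of -0.03. TIMP1, an inhibitor of matrix proteases, stood at 24.3, 16.7 and 149 FPKM in Mongolian and at 44.0, 70.2 and 173 in Hu. MMP2, a matrix protease, stood at 38.1, 65.4 and 51.5 in Mongolian and at 31.3, 94.99 and 48.4 in Hu. PLAT, the tissue plasminogen activator, ranged from 9.497 to 25.8, HIF1A from 5.02 to 20.5, and RGS2, a regulator of Gq signals, from 5.58 to 16.8. PTX3, a protein of the cumulus matrix, stood at 3.90, 1.25 and 9.29 in Mongolian and at 0, 1.33 and 1.08 in Hu. TNFAIP6, another such protein, was named outside the rule and was above 0 in Hu 2 and Hu 3 alone, at 5.84 and 0.83. PGR, the progesterone receptor, LHCGR, the luteinizing hormone receptor, and the protease ADAMTS1 were likewise named outside the rule. Each was highest in Hu 3, at 21.1, 9.24 and 22.2 FPKM, with the next highest value at 3.36, 2.69 and 10.2 in Mongolian libraries. Of the 19 genes listed from this set, 7 (36.8%) were highest in Hu 3, as were 45.5% of all rows, so those picked are not typical of the set.

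**Figure D5:**
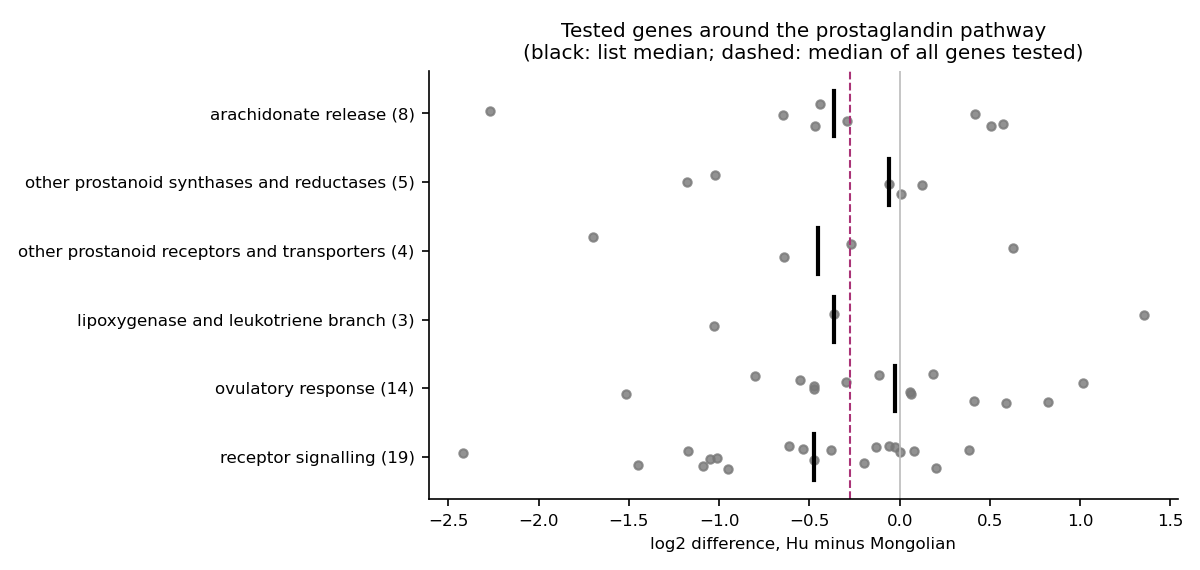
Log2 difference, Hu minus Mongolian (horizontal axis), of each tested gene (grey points, spread vertically for display) in 6 lists around the prostaglandin pathway, with the number tested in brackets; black marks are list medians and the dashed line is the median of all genes tested, -0.28. List medians lie between -0.47 and -0.03, and no gene passed the adjusted threshold.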

How the data were processed

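Expression was read from the authors' table of gene FPKM, which has a column per library, and these were matched to samples by the codes in the sample descriptions, with 0 columns left unmatched. Per the labels' protocols, RNA was column-purified and polyadenylated libraries were made with a SMARTer kit. What aligner, counter, build or filter was used was not given in the sources used here, and no position or sequence was used. FPKM divides by the library total, and 2 assembled rows without a symbol held much of each library's sum. Their share was 53.3% in Hu 3 and between 74.2% and 79.7% in the other libraries. Rows with a symbol summed to 133674 FPKM in Hu 3 and to between 53045 and 82410 in the others, so values as deposited run high in Hu 3. Low values held no steps of whole reads: at most 0.566% of genes under 2 FPKM shared a ratio within a bin of 0.2%.

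The 9971 rows at 0.5 FPKM or above in 3 or more libraries were tested on log2(FPKM + 1), which understates changes of low genes, with limma 3.58.1 in R 4.3.3 (trend, two-sided, breed alone, Benjamini-Hochberg, threshold 0.05), checked on simulated data. The members and lists were chosen with earlier results of these data known. Every listed member was named. From each pathway list the 5 genes with the highest mean and the 2 with the smallest p were named, and for likeness the 3 closest genes of members above 0 in at least 4 libraries. The lncRNA table was not used.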

Additional observations from a re-analysis of the deposited data

How the results depend on the processing

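Of 9971 genes 0 were called as reported, and 0 under every other pseudocount, filter and scaling tried, but limma array weights called 633. Leaving out each library in turn gave from 0 to 4 calls, with 2 without Hu 2 and 4 without Hu 3. The cause was not tested. Over the same leave-outs the log2 difference ranged from 1.02 to 1.33 for AKR1B1, from -1.88 to -1.36 for PTGES2 and from -2.05 to 0.84 for PTGFR. AKR1B1 kept its direction and stayed uncalled in each setting, among them keeping only rows above 0 in all 6 libraries, which was added after the data were seen. PTGES2 was called with array weights (-1.93, adjusted p = 0.0269), and PTGFR reversed to 0.33 after quantile normalization; the cause was not tested. PTGES2 and PTGFR could not be fitted with the filter at 5 FPKM or in all 6 libraries. With the replicate number as a block 0 genes were called and the log2 differences were 1.18, -1.54 and -0.13 for AKR1B1, PTGES2 and PTGFR. The numbers share no source in the labels, and deviations of same-numbered libraries correlated at -0.01, -0.03 and -0.18. Of genes at an unadjusted p under 0.05, 24.5% were higher in Hu as deposited and 52.0% after quantile normalization, where the median of all genes was 0.02. Without Hu 1 that share was 63.9% and without Hu 3 it was 3.84%. Of the 52 pathway genes tested, 26 kept their direction in each setting that could fit them, and array weights called 5 (PLAAT3, PTGR2, PPARG, GNA11 and PRKAR2B). Depth is unknown, so a 0 may be a transcript that was missed.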

Other observations

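Arachidonic acid can also enter the lipoxygenase and leukotriene branch, of which 6 of 14 genes were listed and 3 tested, 1 higher and 2 lower in Hu, with none called by limma (median log2 difference -0.37; lowest adjusted p = 0.998). ALOX15, a lipoxygenase outside the leukotriene route, stood at 0, 0 and 0.99 FPKM in Mongolian and at 3.55, 0 and 6.24 in Hu. EPHX2, a soluble epoxide hydrolase, was counted among the 3 tested, although it is neither a lipoxygenase nor an enzyme of leukotriene synthesis. EPHX2 stood at 12.9, 6.26 and 14.3 in Mongolian and at 3.83, 2.73 and 9.02 in Hu. LTA4H, which makes leukotriene B4, ranged from 0 to 2.48 FPKM. ALOX5 and its partner ALOX5AP, the entry to leukotrienes in white blood cells, reached 0.82 and 5.03 FPKM in Mongolian 3 and were listed at 0 in all Hu libraries. Macrophage and leukocyte markers were at their lowest sum, 11.4 FPKM, in that same library. Of the 13 listed, 6, 1 and 6 were at 0 in Mongolian and 7, 5 and 1 in Hu. PTPRC, also in that list, stood at 2.15, 3.96 and 3.87 FPKM in Mongolian and at 1.22, 0 and 1.36 in Hu. The cell source of ALOX5 and ALOX5AP was not tested.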
